A study of Mus musculus with 18 samples.

Results

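The 9 amino acid transporter genes Slc7a11, Slc7a5, Slc3a2, Slc7a1, Slc7a3, Slc38a2, Slc1a4, Slc1a5 and Slc6a9 were followed through acute and chronic endoplasmic reticulum (ER) stress in MIN6 cells, a mouse insulinoma line used as a model of pancreatic β-cells. They were chosen by name, 9 of 17208 genes listed, with earlier results of these data known. The counts and RPKM (reads per kilobase of transcript and per 1000000 reads of the library) of their RefSeq transcripts were summed per gene. ER stress was produced with 200 µM cyclopiazonic acid (CPA), which reversibly blocks SERCA, the calcium pump of the ER membrane. Cells received CPA for 1 h (CPA1) or 18 h (CPA18), and control cells received the solvent DMSO for 18 h, so that the acute time point had no solvent control of its own duration. Each treatment was sampled in 3 experiments by mRNA-seq of poly(A) RNA and by Ribo-seq, which sequences the RNA fragments protected by ribosomes, giving 18 libraries. All cells were 1 line in a culture medium with added glutamine, and nothing in the labels tells how the cultures of 1 experiment were kept apart.

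These carriers move amino acids across the plasma membrane. Slc3a2 is the heavy chain 4F2hc (CD98) that brings several light chains to the cell surface, among them Slc7a5 (LAT1), which exchanges large neutral amino acids such as leucine, and Slc7a11 (xCT), which takes up cystine in exchange for glutamate. Slc7a1 and Slc7a3 (CAT1 and CAT3) carry arginine and lysine, Slc38a2 (SNAT2) is a sodium-coupled carrier of small neutral amino acids, Slc1a4 (ASCT1) and Slc1a5 (ASCT2) exchange neutral amino acids such as alanine and serine, with glutamine a substrate of Slc1a5, and Slc6a9 (GLYT1) takes up glycine. In the unfolded protein response, the kinase PERK phosphorylates eIF2α, general initiation falls and the transcription factor ATF4 is made, and many genes of amino acid uptake are known targets of ATF4 through C/EBP-ATF response elements.

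In the RefSeq annotation of GRCm38, the genes lie on 9 different chromosomes. Slc7a11 is at chr3:50364936-50499087, Slc6a9 at chr4:117835258-117869305, Slc7a1 at chr5:148327410-148399904, Slc1a5 at chr7:16781334-16798274 and Slc7a5 at chr8:121881146-121907686. Slc1a4 is at chr11:20302180-20332713, Slc38a2 at chr15:96687392-96699728, Slc3a2 at chr19:8706882-8723369 and Slc7a3 at chrX:101079146-101090452. Their messages differ in how much of them is coding. The Slc7a11 transcript of 9227 nt has a coding sequence of 1506 nt, so that 83.6% of it is untranslated, whereas 18.4% of the shorter Slc7a3 transcript of 2277 nt is untranslated.

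The core of the C/EBP-ATF response element, TGATGNAA on either strand, was looked for in RefSeq promoter windows (GRCm38.p6) that run from 250 bases before each transcription start to 50 bases after it. Of 32851 windows, 1304 (3.97%) held it and 23 (0.0700%) held 2 or more matches. Among the members, the window of Slc7a11 held 2 matches and that of Slc1a4 held 1, while the windows of Slc3a2, Slc38a2, Slc7a1 (2 windows) and Slc6a9 (3 windows) held none. Slc7a5, Slc7a3 and Slc1a5 had no entry, and sequence outside the windows was not searched. The windows of Slc3a2 (chr19:8713848-8714147) and Slc7a11 (chr3:50443564-50443863) lie inside the gene spans given above. The upstream ends of those spans were not covered by a window. The stretches with matches are shown 5′ to 3′ on the minus strand, on which both genes are transcribed, with the matched bases in capitals. These stretches are shown because they carry the matches found. Slc7a11 had the smallest estimated change of the 9 in CPA18, not set apart from Slc38a2 in mRNA-seq, and Slc1a4 one of the larger. Whether the matches bear on these changes was not tested.
Slc7a11: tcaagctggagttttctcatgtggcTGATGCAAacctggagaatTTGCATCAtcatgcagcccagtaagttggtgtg
Slc1a4: tgcctcctgcgTTGCATCAtctccagcctg
The Slc7a11 stretch is chr3:50443628-50443704 and its matches, which face each other, begin 66 and 47 bases before the first transcribed base. The Slc1a4 stretch is chr11:20332699-20332728 and its match begins 4 bases before that base and runs across it. A match of letters is a description of the sequence and not evidence of binding.

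Libraries held 168129 to 4755030 counts. The CPA18 Ribo-seq libraries were the shallowest group, with 168129 to 553842 counts, and the control mRNA-seq library of experiment 1 was the shallowest of its assay, with 520960. A gene was tested when it had at least 1 read in each of the 18 libraries, which held for 7794 genes and for 8 of the 9 members. Slc1a5 had no read in the control mRNA-seq library of experiment 1, and its fold changes are from a fit to all genes with reads. Tests were edgeR's quasi-likelihood tests with the experiment as a block, and "called" means an adjusted p (Benjamini-Hochberg over all genes) under 0.05. All 13 β-cell markers looked for had reads, and 12 of 13 were called lower in CPA18 mRNA-seq, where 7.69% of all genes tested were. Their summed RPKM was 159567 to 465393 in control and 44527 to 135982 in CPA18, mostly insulin. Acinar, ductal, fibroblast, endothelial and leukocyte markers summed to at most 4.29 RPKM in any library, and Prss1 and Ptprc were at 0 throughout. The markers of alpha cells summed to 21.7 to 129.3 RPKM in mRNA-seq. These are bulk libraries, so a change in RNA per cell and a change in the make-up of the culture cannot be told apart.

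With total counts as the scale, the median tested gene moved by 0.36 (log2) in CPA18 mRNA-seq and by 0.39 in CPA18 Ribo-seq, and fold changes are therefore also given relative to that gene. In CPA18 mRNA-seq 2018 genes were called higher and 599 lower, against 1157 and 1297 when the libraries were centred on the median gene. In CPA18 Ribo-seq these numbers were 1914 and 495, against 874 and 954. With the reads of Ins1, Ins2 and the mitochondrial leucyl-tRNA synthetase gene Lars2 left out of the totals, the median moved by 0.11 in mRNA-seq and by 0.21 in Ribo-seq, and 6 and 7 members were called, as with all reads. In CPA1 the median gene moved by −0.12 in mRNA-seq and by 0.070 in Ribo-seq.

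Ribosome footprints lie on coding sequence, so levels were compared between genes as footprints per kilobase of coding sequence and per 1000000 reads, with all reads on a transcript counted. In control cells Slc7a5 had 205.7 ± 80.1 (SD, n = 3) and Slc3a2 165.4 ± 17.3, and the ranges of these first members overlapped. Slc38a2 followed with 87.4 ± 19.1 and Slc7a1 with 68.6 ± 4.40, again with overlapping ranges. Slc7a11, at 37.3 ± 4.15, lay below Slc7a1 and above Slc1a4, at 26 ± 1.57, without overlap on either side. The lowest members, Slc6a9 (5.51 ± 2.12), Slc1a5 (3.66 ± 1.92) and Slc7a3 (2.44 ± 1.90), lay below Slc1a4 without overlap, and Slc1a5 overlapped both of the others.

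After 18 h of CPA the order of the means was different. Slc3a2, the shared heavy chain, had the highest mean with 841.0 ± 187.5 and Slc7a5 had 557.0 ± 138.8, and the lowest Slc3a2 value (637.9) lay under the highest Slc7a5 value (650.5). Slc7a1 reached 262.6 ± 43.9 and Slc38a2 239.1 ± 20.4, and these overlapped. Slc1a4 reached 150.7 ± 31.7, above Slc7a11 and Slc6a9 without overlap. Slc7a11, at 47.0 ± 20.8 with a lowest value of 22.9 in experiment 2, overlapped Slc6a9 (69.9 ± 19.4), Slc1a5 (27.2 ± 8.86) and Slc7a3 (21.3 ± 3.34), so that its place among these 4 was not set beyond the spread.

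**Figure D1:**
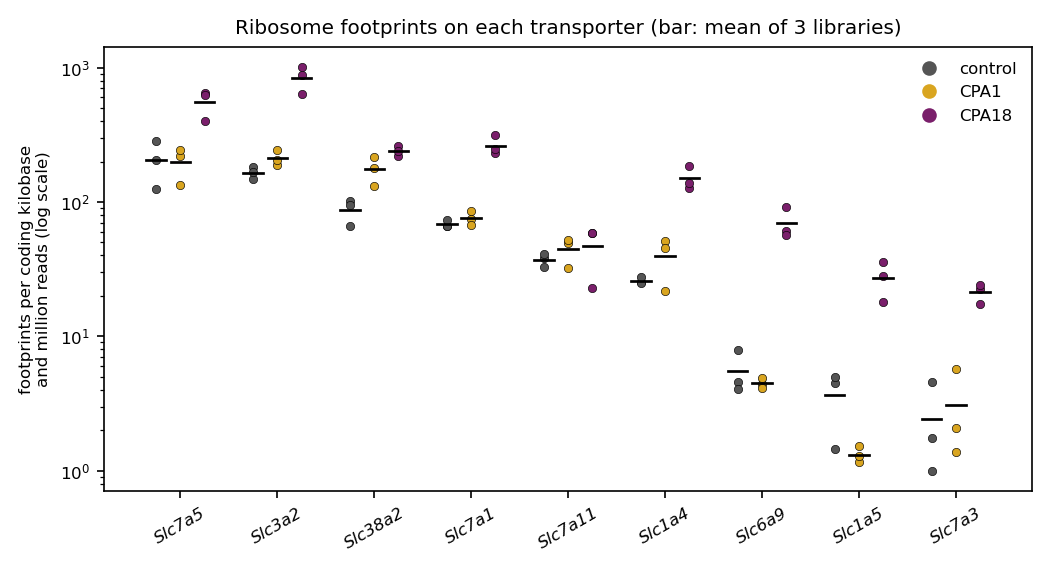
Ribosome footprints per kilobase of coding sequence and 1000000 reads (log axis) on each transporter in control, CPA1 and CPA18 cells, ordered by the control mean, with 1 point per library and bars at the mean of 3 libraries. Slc7a11 lies at 37.3 in control and 47.0 in CPA18, whereas Slc6a9 goes from 5.51 to 69.9.

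The heavy chain Slc3a2 and its partner Slc7a5 rose after 18 h, and the other partner among the members, Slc7a11, did not pass the test. In mRNA-seq Slc3a2 stood at 47.3, 41.1 and 52.3 RPKM in the controls of experiments 1, 2 and 3, at 35.7, 48.2 and 89.8 in CPA1 and at 150.7, 371.9 and 438.6 in CPA18. All CPA18 libraries were above all control and all CPA1 libraries. The change from control to CPA18 was 2.68 ± 0.27 (log2 ± SE, adjusted p = 1.03e-14), or 2.32 above the median gene. Its footprints were at 89.9, 111.0 and 101.0 RPKM in control, 115.6, 125.7 and 149.0 in CPA1 and 389.0, 613.9 and 534.0 in CPA18, a change of 2.33 ± 0.17 at 18 h (adjusted p = 1.49e-34).

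Slc7a5, the leucine carrier of the pair, had the higher mRNA level of the 2 in control cells, with 78.1, 104.5 and 155.4 RPKM. It stood at 61.8, 76.6 and 147.4 in CPA1, below the control of the same experiment each time, and at 189.8, 428.2 and 478.9 in CPA18. The CPA18 libraries did not overlap the others, and the change from control was 1.67 ± 0.25 (adjusted p = 5.37e-08), 1.3 above the median gene. The call was lost without the experiment as a block (adjusted p = 0.118). In Ribo-seq Slc7a5 read 90.1, 54.8 and 124.8 in control, 95.4, 58.0 and 106.5 in CPA1 and 284.7, 173.8 and 272.4 in CPA18, with a change at 18 h of 1.46 ± 0.17 (adjusted p = 1.05e-14).

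Slc7a11, the cystine carrier, was the member with the smallest estimated change in CPA18. In mRNA-seq its SE did not set it apart from Slc38a2 (0.62 ± 0.30). Its mRNA stood at 2.29, 3.16 and 6.66 RPKM in control, at 2.97, 4.73 and 7.33 in CPA1 and at 2.71, 5.15 and 7.90 in CPA18. The 3 groups overlapped throughout, and the spread between experiments was larger than that between treatments. Within each experiment both CPA libraries were above their control. The log2 differences were 0.38, 0.58 and 0.14 in CPA1 and 0.24, 0.70 and 0.25 in CPA18. The change from control to CPA18 was 0.41 ± 0.31 (adjusted p = 0.318), 0.043 above the median gene, and it was −0.028 with libraries centred on that gene. Its footprints, 6.2, 5.36 and 6.70 RPKM in control, 8.14, 8.56 and 5.30 in CPA1 and 9.68, 3.74 and 9.59 in CPA18, overlapped as well, with a change of 0.38 ± 0.30 (adjusted p = 0.346). The CPA18 footprint values of Slc7a11 rest on 15, 7 and 49 reads. The ratio of heavy chain footprints to the sum of Slc7a5 and Slc7a11 footprints, per coding kilobase, was 0.605, 1.15 and 0.509 in control and 0.899, 2.40 and 1.29 in CPA18, higher in each of the 3 experiments with overlapping groups. Light chains outside the member list are not in this ratio.

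The carriers of cationic amino acids rose from very different levels. Slc7a1 mRNA stood at 14.3, 5.29 and 11.6 RPKM in control, 13.6, 10.8 and 13.8 in CPA1 and 45.8, 34.4 and 47.6 in CPA18. CPA18 lay above the other groups without overlap, and the change from control was 2.13 ± 0.27 (adjusted p = 1.36e-10). Slc7a1 footprints went from 17.2, 17.3 and 19.3 RPKM in control to 81.8, 60.0 and 64.2 in CPA18, a change of 1.92 ± 0.19 (adjusted p = 1.93e-19), with 19.5, 22.5 and 17.5 in CPA1.

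Slc7a3 was barely detected before chronic stress, with 1, 1 and 7 mRNA reads in control and 2, 2 and 4 in CPA1, against 18, 168 and 35 in CPA18. In RPKM these were 0.843, 0.252 and 1.25 in control and 6.22, 15.0 and 8.30 in CPA18, which did not overlap. The change was 3.64 ± 0.53 (adjusted p = 2.80e-08), and with so few reads its size depended on single experiments, from 2.77 without experiment 2 to 4.80 without experiment 3. Slc7a3 footprints numbered 7, 3 and 2 reads in control and 7, 9 and 18 in CPA18, or 3.71, 1.36 and 0.811 against 17.8, 19.0 and 13.9 RPKM. That change was 3.13 ± 0.48 (adjusted p = 6.29e-09).

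Slc38a2 was the member called after 1 h, in Ribo-seq. Its footprints stood at 30.9, 28.5 and 19.9 RPKM in control, at 65.7, 53.7 and 39.7 in CPA1 and at 78.8, 66.3 and 73.2 in CPA18. Each group lay above the one before it without overlap, CPA1 and CPA18 by a narrow margin. The change from control was 1.00 ± 0.19 in CPA1 (adjusted p = 2.49e-05) and 1.52 ± 0.20 in CPA18 (adjusted p = 7.23e-12). Per experiment, the CPA1 change was 1.09, 0.91 and 1.00.

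Slc38a2 mRNA showed no such separation. It stood at 21.3, 6.36 and 5.42 RPKM in control, at 20.8, 18.7 and 8.05 in CPA1 and at 20.7, 15.4 and 8.82 in CPA18. In experiment 1 the 3 treatments were alike and control was the highest of the 3 controls, with 51 reads, whereas in experiments 2 and 3 both CPA libraries were above their control. The mRNA change was 0.68 ± 0.30 in CPA1 (adjusted p = 0.621) and 0.62 ± 0.30 in CPA18 (adjusted p = 0.100). Without experiment 1 the CPA18 change was 0.97 and passed the threshold (adjusted p = 0.0337), and without experiment 2 it was 0.33.

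The neutral amino acid exchangers both rose at 18 h. Slc1a4 mRNA stood at 6.36, 7.28 and 12.5 RPKM in control, at 7.30, 11.3 and 17 in CPA1 and at 33.2, 77.7 and 95.2 in CPA18. CPA1 was above control within each experiment but the groups overlapped, and CPA18 was above both without overlap. The change at 18 h was 2.98 ± 0.29 (adjusted p = 5.87e-15). Slc1a4 footprints were close together in control, at 10.2, 10.1 and 11.3 RPKM, and reached 51.5, 56.4 and 75.9 in CPA18, a change of 2.54 ± 0.25 (adjusted p = 2.98e-20). In CPA1 they stood at 8.83, 20.8 and 18.4, which gave 0.56 ± 0.27 (adjusted p = 0.249).

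Slc1a5, the exchanger that also carries glutamine, was scarce, with 0, 9 and 14 mRNA reads in control, 3, 4 and 18 in CPA1 and 23, 169 and 48 in CPA18. Its RPKM was listed at 0, 1.98 and 2.11 in control and was 6.71, 12.9 and 9.68 in CPA18. In the fit without a filter on low counts, the CPA18 change was 2.75 ± 0.45 in mRNA-seq (adjusted p = 1.14e-07) and 2.81 ± 0.48 in Ribo-seq (adjusted p = 3.14e-07). That fit called 11.4% and 9.33% of its genes higher in the respective assays. Slc1a5 footprints in CPA1 were 1 read in each of the 3 libraries, against 2, 7 and 9 in control and 5, 12 and 26 in CPA18, which is too few to read a direction at 1 h.

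Slc6a9, the glycine carrier, rose from a low level, by a size that its SE did not set apart from that of Slc7a3 in mRNA-seq. Its mRNA stood at 2.37, 2.70 and 4.73 RPKM in control, at 2.93, 1.02 and 5.38 in CPA1 and at 27.6, 57.2 and 58.1 in CPA18. The control and CPA1 groups overlapped and CPA18 was far above both, with a change from control of 3.89 ± 0.36 (adjusted p = 2.22e-16), 3.53 above the median gene. Slc6a9 footprints went from 2.70, 4.83 and 2.36 RPKM in control to 55.3, 35.9 and 33.7 in CPA18, a change of 3.62 ± 0.35 (adjusted p = 1.96e-20), and stood at 2.45, 2.46 and 2.70 in CPA1.

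**Figure D2:**
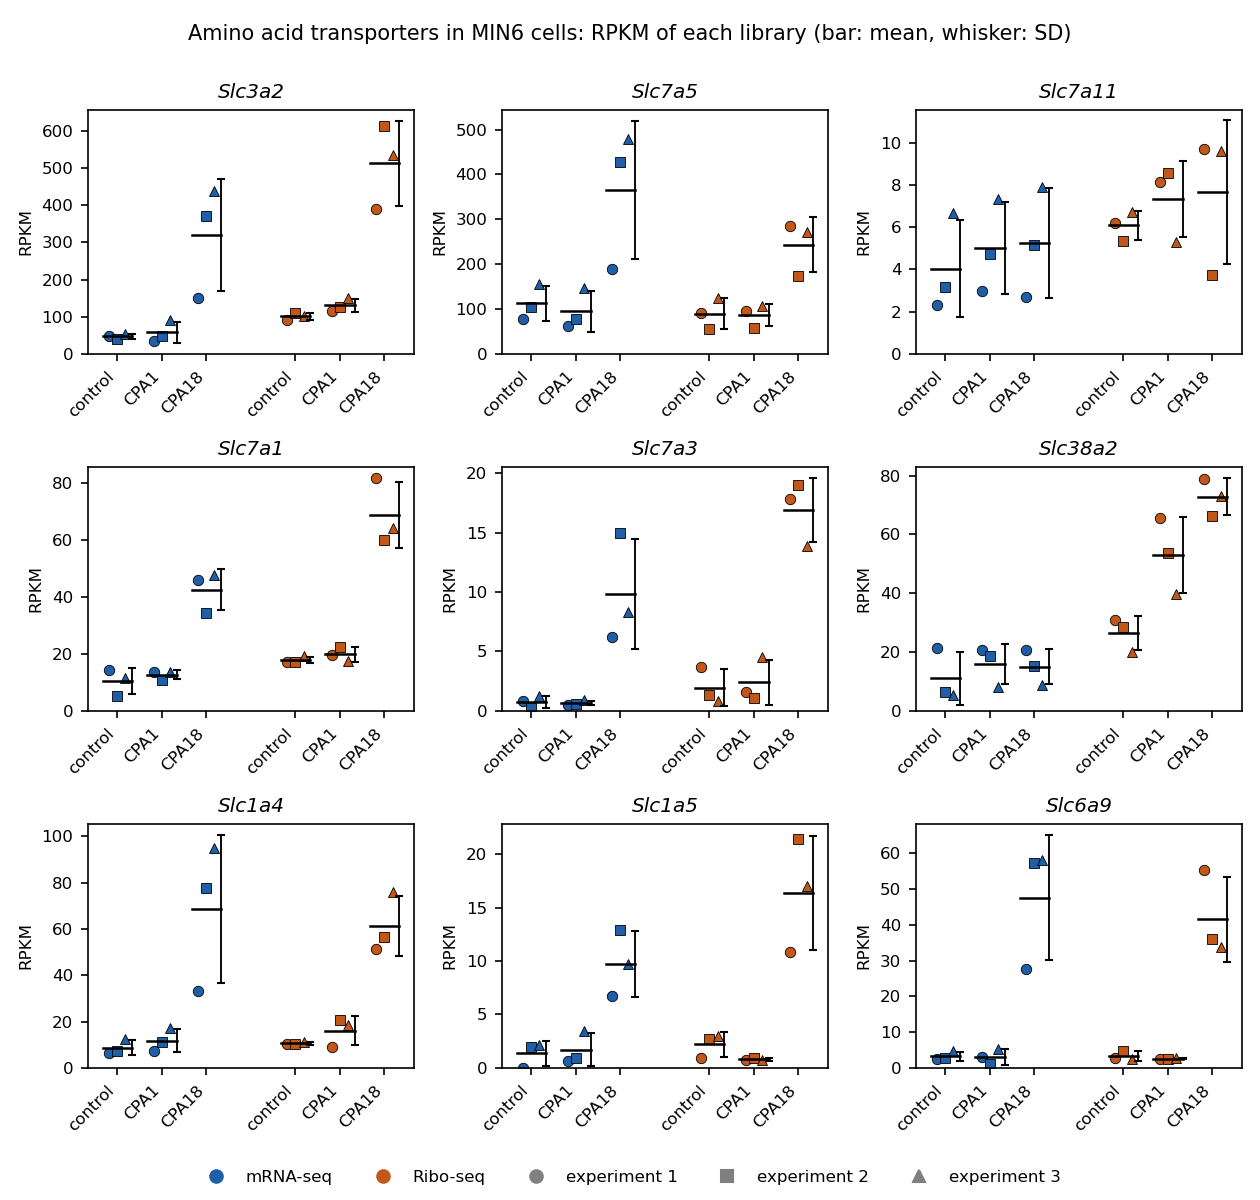
RPKM of each transporter in every library, mRNA-seq in blue on the left and Ribo-seq in orange on the right of each panel, with 1 symbol per experiment, bars at the mean and whiskers for the SD (n = 3). CPA18 stands above control in both assays for 7 genes, Slc38a2 separates in Ribo-seq, where control is at most 30.9 and CPA1 at least 39.7, and Slc7a11 overlaps in all panels.

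For chronic stress as a whole, 6 of the 8 members tested were called higher in CPA18 mRNA-seq than in control, where 25.9% of all genes tested were called higher and 7.69% lower. With libraries centred on the median gene it was also 6, against 14.8% of all genes higher and 16.6% lower. Without the experiment as a block it was 5, against 1.45% of all genes. The median member changed by 2.41 and the median gene by 0.36. In Ribo-seq 7 of 8 were called higher, the same 6 and Slc38a2, against 24.6% of all genes higher and 6.35% lower (11.2% and 12.2% when centred), and the medians were 2.12 and 0.39. No member was called lower. The CPA18 libraries lay above the control libraries without overlap for 6 of 8 members in mRNA-seq, which held for 14.8% of all genes tested, and for 7 of 8 in Ribo-seq, which held for 29%.

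After 1 h, none of the 8 members was called in mRNA-seq, where 0.719% of all genes tested were. By unadjusted p, Slc38a2 was the 1 member under 0.05, and limma called none of the 8 and DESeq2 none of the 7 to which it gave an adjusted p. Apart from Slc38a2, the mRNA changes in CPA1 ran from −0.27 for Slc7a5 to 0.47 for Slc1a4. In CPA1 Ribo-seq, where 3.72% of all genes were called higher, the 1 member called was Slc38a2, and it was called under each of the 12 alternative settings, with values between 0.93 and 1.09. At an unadjusted p under 0.05 there were 3 members, Slc38a2, Slc3a2 and Slc1a4. Slc3a2 (0.37 ± 0.17, adjusted p = 0.207) had CPA1 footprints above control without overlap, as did Slc38a2, which held for 10.3% of all genes.

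**Figure D3:**
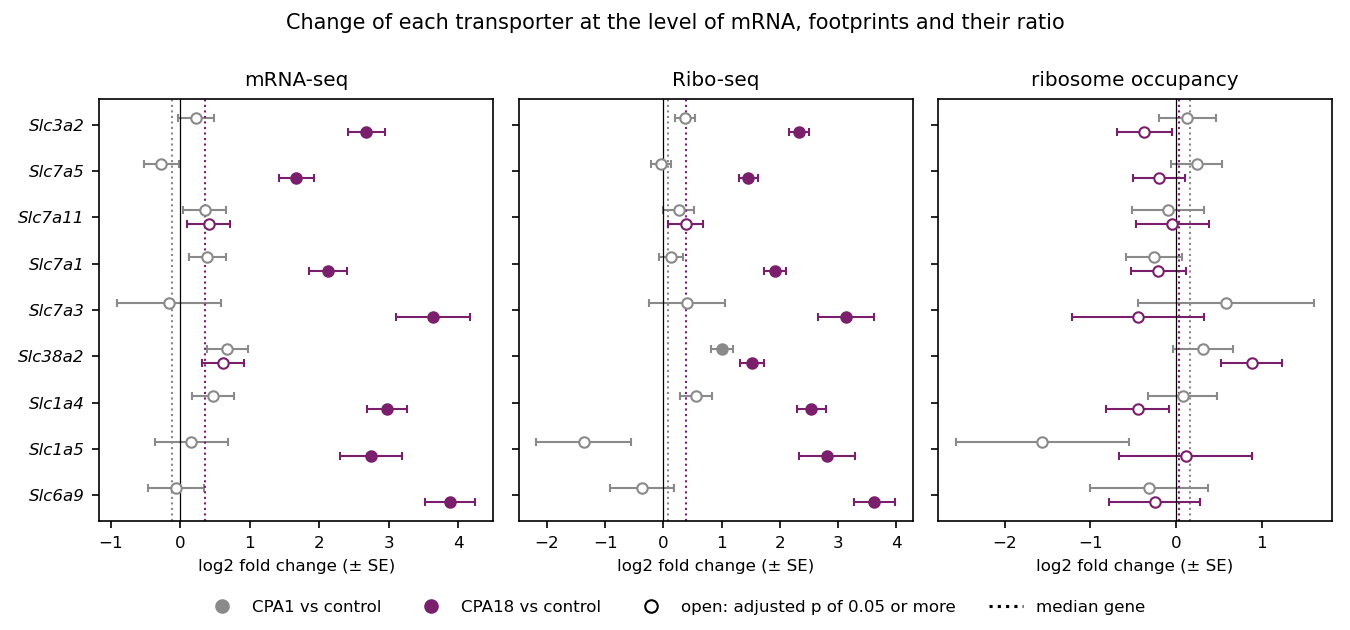
Log2 fold change against control with its SE in mRNA-seq, Ribo-seq and ribosome occupancy, CPA1 in grey and CPA18 in purple, filled where the adjusted p was under 0.05, with dotted lines at the median gene and Slc1a5 from the fit without a filter. In Ribo-seq the filled grey point is Slc38a2 at 1.00, and no point is filled for ribosome occupancy.

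Chronic against acute stress gave a similar list. The 6 members called in CPA18 against control in mRNA-seq were called in CPA18 against CPA1 too, from 1.74 ± 0.26 for Slc7a1 to 3.96 ± 0.35 for Slc6a9, in a comparison in which 31.9% of genes tested were called higher. With libraries centred on the median gene, 1070 genes were called higher and 1243 lower in that comparison, in place of 2490 and 432. Both comparisons use the same CPA18 libraries. In the one with CPA1 as its base, Slc7a5 (adjusted p = 0.0755) and Slc7a1 (adjusted p = 0.0677) were not called without the experiment as a block. In Ribo-seq 7 of 8 were called higher and none lower, from 0.51 ± 0.20 for Slc38a2 to 3.99 ± 0.42 for Slc6a9. Of the 7794 genes tested, 22.5% were called in either direction, 1322 higher and 430 lower. With libraries centred on the median gene, 669 were called higher and 807 lower, and 6 members were called. The Slc38a2 call (adjusted p = 0.0460) was lost in 11 of 12 alternatives, with adjusted p between 0.0645 and 0.594. Between 1 h and 18 h Slc7a11 changed by 0.051 ± 0.30 in mRNA and by 0.12 ± 0.31 in footprints, and neither passed the test.

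Ribosome occupancy, the ratio of footprint to mRNA RPKM, asks whether footprints changed by more or less than the message did. None of the 8 members was called in CPA1 or in CPA18 against control or between them, in comparisons that called 0.0898%, 0.462% and 0.0770% of all genes. At an unadjusted p under 0.05 there was 1 member, Slc38a2 in CPA18, and limma called none of the 8. DESeq2 called none either, but gave an adjusted p to only 4 members in CPA1, 7 in CPA18 and 2 between them. The SE of these changes ran from 0.30 to 0.77 in CPA18. In CPA1, increases of 1.29 ± 0.31 for Atf4 and 2.27 ± 0.55 for the CHOP gene Ddit3 were not called either (adjusted p = 0.058 and 0.061). A missing call is therefore not evidence of an unchanged occupancy.

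Slc38a2 had the largest increase in occupancy at 18 h among the 8. It stood at 1.45, 4.49 and 3.66 in control, at 3.15, 2.88 and 4.94 in CPA1 and at 3.81, 4.30 and 8.31 in CPA18, with overlapping groups. The change was 0.88 ± 0.36 in CPA18 (adjusted p = 0.407) and 0.31 ± 0.35 in CPA1 (adjusted p = 0.930), and the latter was −0.11 without experiment 1. The other 7 members had changes from −0.45 for Slc1a4 and Slc7a3 to −0.042 for Slc7a11 in CPA18. Slc3a2 stood at 1.90, 2.70 and 1.93 in control and at 2.58, 1.65 and 1.22 in CPA18, and Slc7a5 at 1.15, 0.524 and 0.803 against 1.5, 0.406 and 0.569. In both, experiment 1 went up and the others went down, and the groups overlapped.

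**Figure D4:**
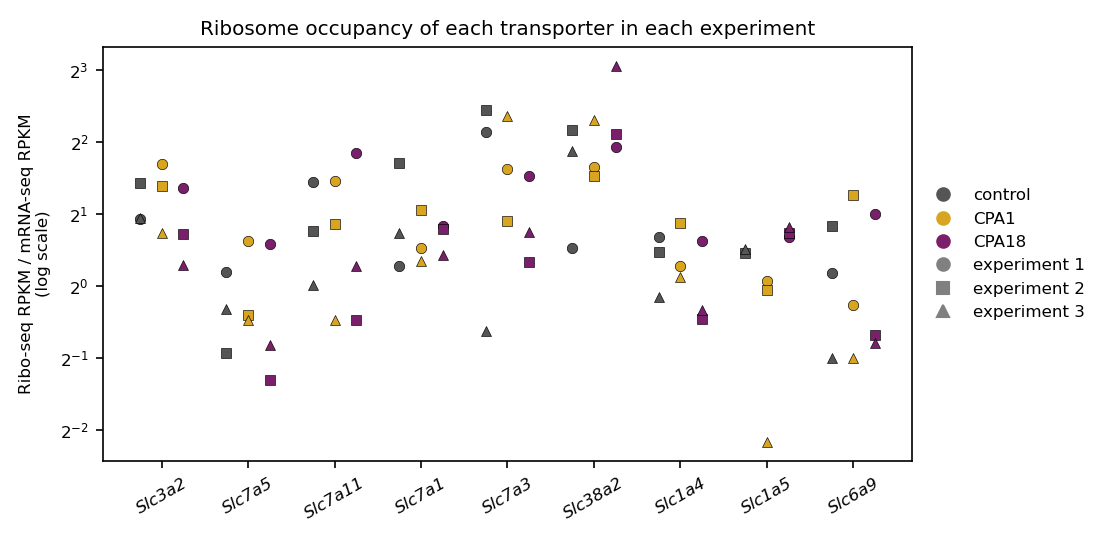
Ribosome occupancy (Ribo-seq RPKM over mRNA-seq RPKM, log axis) of each transporter, 1 symbol per experiment and 1 colour per treatment, without the control of experiment 1 for Slc1a5, which had no mRNA read. The treatments overlap for every member with values in all experiments, and Slc38a2 in CPA18 of experiment 3 is the highest point, at 8.31.

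The 9 transporters together took a larger share of reads in CPA18 than in control in both assays. They took 0.0941%, 0.0861% and 0.106% of footprints in control, 0.121%, 0.112% and 0.122% in CPA1 and 0.352%, 0.345% and 0.376% in CPA18. The groups did not overlap and the experiments lay close together. In mRNA-seq the share was 0.0656%, 0.0617% and 0.0929% in control and 0.177%, 0.342% and 0.391% in CPA18.

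Other amino acid transporters were called in both directions. Of 45 listed, 41 had reads and 16 were tested, and in CPA18 mRNA-seq 3 were called higher and 6 lower, where 25.9% and 7.69% of all genes were, with a median change of −0.35 against 0.36 for all genes. With libraries centred on the median gene these were 1 and 9, against 14.8% and 16.6% of all genes. The decrease with the most reads was that of Slc38a5 (SNAT5), a glutamine and glycine carrier, at −2.01 ± 0.26 (adjusted p = 3.69e-10). Slc38a5 footprints stood at 1247, 1109 and 1342 RPKM in control and at 228.2, 335.6 and 334.6 in CPA18, without overlap. Slc38a5 held 0.231 ± 0.0220% (SD, n = 3) of all footprints in control, more than the 9 transporters together, at 0.0955 ± 0.0102%, and 0.0562 ± 0.0116% in CPA18, when the 9 held 0.358 ± 0.0162%. Its mRNA call was lost without the experiment as a block (adjusted p = 0.0951).

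Slc7a2 (CAT2), a cationic carrier like Slc7a1 and Slc7a3, changed in the opposite direction to them, by −1.86 ± 0.34 (adjusted p = 5.95e-06). Its footprints stood at 32, 27.3 and 20.4 RPKM in control and at 3.85, 8.28 and 10.5 in CPA18. The taurine carrier Slc6a6 was also called lower (−1.15 ± 0.40, adjusted p = 0.0202), a call lost without experiment 1, without experiment 2 and without the control of experiment 2 (adjusted p = 0.0994, 0.185 and 0.106). The 3 called higher were Slc38a7 (1.51 ± 0.42), Slc7a6 (1.41 ± 0.46), a light chain that also pairs with Slc3a2, and Slc38a10 (1.17 ± 0.26). Slc38a7 was not called without experiment 2 (0.61) or its control (0.88), and Slc7a6 was not called without experiment 2, experiment 3 or the control of experiment 2 (adjusted p = 0.0823, 0.234 and 0.0539). Both calls were lost with libraries centred on the median gene (adjusted p = 0.0531 and 0.0558). Over all alternatives, the Slc38a7 call was lost in 7 of 12, that of Slc7a6 in 7 of 11 and that of Slc6a6 in 5 of 12. Without the experiment as a block, Slc38a7, Slc7a6, Slc38a10 and Slc6a6 were not called (adjusted p = 0.166, 0.139, 0.206 and 0.299). In Ribo-seq 1 of the 16 was called higher and 7 lower, against 24.6% and 6.35% of all genes, and 0 and 9 when centred, against 11.2% and 12.2%.

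**Figure D5:**
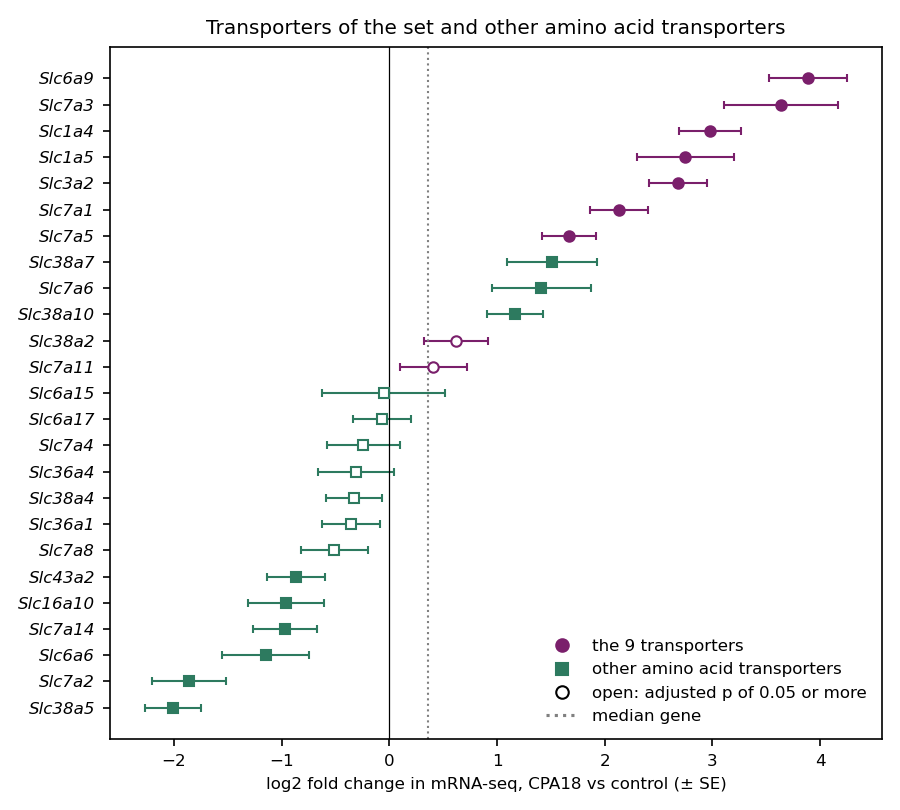
Log2 fold change in mRNA-seq with its SE, CPA18 against control, for the 9 transporters (purple circles, Slc1a5 from the fit without a filter) and the 16 other amino acid transporters tested (green squares), filled where the adjusted p was under 0.05, with a dotted line at the median gene. The 9 transporters run from 0.41 for Slc7a11 to 3.89 for Slc6a9, and the others from −2.01 for Slc38a5 to 1.51 for Slc38a7.

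Regulators of transporter transcription were called after 1 h and after 18 h. Of 8 listed, 7 were tested and 6 were called higher in CPA18 mRNA-seq, with none lower, where 25.9% of all genes were called higher and 7.69% lower. With libraries centred on the median gene 5 were called higher, against 14.8% of all genes. Without the experiment as a block 4 were, against 1.45%. The CHOP gene Ddit3 rose by 4.45 ± 0.33, Cebpb by 3.28 ± 0.28, Atf4 by 3.19 ± 0.27 and Cebpg by 2.25 ± 0.33. After 1 h, 2 of the 7 were called higher in mRNA-seq, against 0.449% of all genes, Ddit3 (1.85 ± 0.33) and Atf4 (1.46 ± 0.26), and 3 in Ribo-seq, against 3.72% of all genes, where Atf4 rose by 2.76 ± 0.18. Atf4 footprints stood at 64.6, 73.1 and 92.2 RPKM in control, 397.9, 531.8 and 662.6 in CPA1 and 966.1, 934.6 and 1238 in CPA18. Nfe2l2 encodes NRF2, a regulator of antioxidant genes known to act on Slc7a11. In CPA18 it was at −0.74 ± 0.58 in mRNA-seq (adjusted p = 0.330) and at 0.34 ± 0.40 in Ribo-seq (adjusted p = 0.552). NRF2 protein was not measured here.

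Of the 8 genes of cystine and glutathione metabolism, all tested, 3 were called higher and 1 lower in CPA18 mRNA-seq, in a background of 33.6% called in either direction. Chac1, which degrades glutathione, rose by 4.22 ± 0.30, and Cth, which makes cysteine from cystathionine, by 3.91 ± 0.48. The glutathione peroxidase gene Gpx4 rose by 0.91 ± 0.24, a call lost without experiment 3 (adjusted p = 0.125), and Cbs, the step before Cth, was lower at −1.41 ± 0.28. Without the experiment as a block, Gpx4 and Cbs were not called (adjusted p = 0.370 and 0.152). Gclc (0.012 ± 0.53), Gclm (0.38 ± 0.31), Gss (0.012 ± 0.39) and Gsr (0.33 ± 0.27), which make and recycle glutathione, were not called.

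Genes with the most similar pattern were sought over the 9 mRNA-seq libraries, by Pearson's r of log2(RPKM + 0.5) after removing the mean of each experiment. For Slc7a5 they were Hyou1 (r = 0.9988), Derl1 (0.9983), Usp11 (0.9981), Dnajb11 (0.9980) and Rnps1 (0.9979), and among the members Slc6a9 came nearest (0.9909, place 58 of the genes ranked). For Slc7a11 they were Clk2 (0.9636), Arpc5 (0.9492), Srfbp1 (0.9306), Glis2 (0.9182) and Kmt2b (0.9112), and among the members Slc38a2 (0.8473, place 35). Slc7a11 and Slc7a5 themselves had r = 0.4243. These 9 points share 3 experiments and 3 treatments, and each library has 1 depth and 1 share of insulin reads, so the values describe likeness and carry no test.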

How the data were processed

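Per the labels, MIN6 cells were profiled by mRNA-seq and Ribo-seq in 3 experiments, and the authors aligned reads with Bowtie2 to GRCm38 RNA (version not given in the sources used here). They deposited raw read counts per RefSeq transcript and the transcript length, and RPKM made from these and the library total. Recomputed RPKM differed by at most 0.00111 (log2). Authors' RPM columns were not used.

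Transcripts (30741, 36 without a match) were summed to 17208 genes through RefSeq GRCm38. The 7794 genes detected in each of the 18 libraries (1 read or more) were tested with edgeR 4.0.16 (R 4.3.3): quasi-likelihood tests, total counts as library sizes, all treatments of an assay in 1 fit and the experiment as a block. Occupancy changes were the interaction of assay and treatment over 18 libraries, with a block for each experiment within an assay. SE is the absolute log2 fold change over the root of F. p-values were Benjamini-Hochberg adjusted over all genes tested, with 0.05 as threshold, and DESeq2 1.42.0 and limma 3.58.1 (log2(RPKM + 0.5)) served as alternatives. The code was tested on simulated data.

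The replicate number is a batch in the labels. Deviations from treatment means correlated between libraries of 1 experiment with mean r = 0.567 in mRNA-seq (0.113 to 0.757 over 9 pairs) and 0.139 in Ribo-seq (0.0830 to 0.187). The lowest mRNA-seq values were those of the CPA1 library of experiment 2, at 0.129 with control and 0.113 with CPA18. The remaining mRNA-seq pairs were at 0.576 or more. For control replicate 2, 1 label field names the other assay. Both libraries were placed by their titles, and fits without them were run. p-values measure the spread between these samples, which may be technical. Counting precision follows from the read numbers given; reads here carry no molecular identifiers, so only counting error is covered. The members, gene lists (markers, other transporters, regulators, glutathione genes) and tests were chosen with earlier results of these data known. All 9 members are named. Of each other list, genes with an adjusted p under 0.05 in CPA18 mRNA-seq were named by size, up to 6 transporters and 4 of the others. Nfe2l2, Gclc, Gclm, Gss and Gsr were named after their values were seen, as were the Ribo-seq and CPA1 values of list genes.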

Additional observations from a re-analysis of the deposited data

How the results depend on the processing

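The 12 alternatives for each result were TMM scaling, centring on the median gene, totals without Ins1, Ins2 and Lars2, sums of transcripts with reads in every library, no filter, DESeq2, limma, no block, each experiment left out and the control libraries of experiment 2 left out. The same 12 were applied to the list genes after the data were seen. The number of members called stayed within 1.5 times in each. In CPA18 against control it was 4 to 7 in mRNA-seq (6 as reported) and 5 to 8 in Ribo-seq (7), in CPA18 against CPA1 4 to 7 (6) and 5 to 7 (7), in CPA1 Ribo-seq 1 throughout, and 0 throughout in CPA1 mRNA-seq and for occupancy. Leaving out libraries gave 6 to 7, 7, 6 and 6 for the first 4. Sums of transcripts with reads in every library hold neither Slc7a3 nor Slc6a9, and DESeq2 gave Slc7a3 no adjusted p in Ribo-seq.

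Slc7a11 reversed in CPA18 mRNA-seq under TMM scaling (−0.069), centring (−0.028) and DESeq2 (−0.031), and Slc38a2 occupancy in CPA1 ran from −0.11 to 0.78 with libraries left out. Without the replicate block, members called fell to 5 and 4 in the mRNA-seq comparisons of CPA18 with control and CPA1, and Slc38a5 (adjusted p = 0.0951), Slc38a7 (0.166), Slc7a6 (0.139), Slc38a10 (0.206), Slc6a6 (0.299), Cbs (0.152) and Gpx4 (0.370) were not called. All genes called went from 2617 to 154 and from 2922 to 138 without this pairing, in CPA1 mRNA-seq from 56 to 0, in CPA1 Ribo-seq from 507 to 231, and for occupancy from 7, 36 and 6 to 0, 3 and 0.

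Over all alternatives, genes called numbered 0 to 166 in CPA1 mRNA-seq, and 0 to 73, 3 to 121 and 0 to 42 for occupancy in CPA1, in CPA18 and between them. In CPA18 mRNA-seq 1638 were called without experiment 2, 990 without experiment 3 and 1460 without the control of experiment 2, and in CPA18 against CPA1 1450 without experiment 2, 1678 without experiment 3 and 1810 by DESeq2. In CPA1 Ribo-seq limma called 216 and fits with libraries left out 238 to 309. In CPA18 Ribo-seq 1474 were called without experiment 2, and 1135 in place of 1752 against CPA1. DESeq2, which gave fewer genes an adjusted p, called 1145 of 5678 in CPA18 Ribo-seq, against 2409 of 7794, and 1008 against CPA1. The cause of these differences was not tested. Slc7a3 had 1 to 7 reads in each control and CPA1 library of both assays, which limits the precision of its values. The Slc7a3 change in CPA18 exceeded that of Slc6a9 in mRNA-seq without experiment 3 (4.80 against 4.04) and in Ribo-seq without experiment 1 (3.77 against 3.33).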
